A study of Homo sapiens with 12 samples.

Results

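The miR-26 family was followed through cells that carry different versions of DICER, by the counts of 3 mature strands, hsa-miR-26a-5p, hsa-miR-26b-5p and hsa-miR-26b-3p (hsa marks a human miRNA and is left out below). These are 3 of 1346 miRNA entries in the tables, found by exact name. All 3 passed the filter on low counts that left 374 entries for testing. DICER is the RNase III enzyme that cuts the loop off a precursor hairpin and so releases a 5p and a 3p strand. One strand is then loaded into an Argonaute protein as the guide and the other is mostly lost, so the balance of the strands of a hairpin reads out both dicing and strand choice. miR-26 is a broadly expressed family of vertebrates whose 5p strands are the usual guides and are known to repress EZH2, the methyltransferase of Polycomb.

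Small RNA was sequenced by AQ-seq, a protocol built to lower ligation bias, from total RNA of HCT116, an established line of human colorectal carcinoma. All 12 libraries came from HCT116 cells rescued with a DICER, and they formed 6 groups of 2 libraries: R821E and R821A, in which the arginine named R821 is replaced by glutamate or by alanine, E5, A5, ΔPAZ helix (a deletion, going by the name, of the helix in the PAZ domain), and wild type (WT). The sources used here do not explain the names E5 and A5, and they do not describe how the rescue was done, at what level each DICER was expressed, or whether a group is 1 clone. The study concerns human DICER bound to a precursor in a dicing state, and each mutant was set against WT, R821E against R821A, and E5 against A5.

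Libraries held 144067 to 255296 miRNA counts, and 3 counts correspond to 11.8 to 20.8 CPM (counts scaled to 1000000 miRNA counts), a limit that covers counting error only. Entries marking epithelium (the miR-200 family) summed to 737 to 2358 CPM and the intestinal miR-192 and miR-194 to 113 to 335 CPM. Most of the epithelial sum was miR-200a-3p (180 to 1005 CPM) and miR-200b-3p (454 to 1465 CPM). miR-200c-3p (6.94 to 59.9 CPM) and miR-141-3p (13.1 to 46.4 CPM) were low, with lowest values in or below the range that corresponds to 3 counts. Of 12 markers of other cells 11 were listed, with 1313 to 2126 CPM in sum, and none was at 0 in every library. Most of that sum was miR-9-5p (526 to 972 CPM), miR-145-5p (170 to 607 CPM), miR-126-3p (65.4 to 483 CPM) and miR-451a (120 to 250 CPM), and the part of these entries in the results was not tested. Counts of miRNAs per spike-in count were 13.4 to 15.3 in R821E, 16.5 to 21.5 in the other mutants and 22.4 to 25.9 in WT. Levels are therefore given on 2 scales. CPM with TMM factors (trimmed mean of M values), used below for every miR-26 level in CPM, state a strand relative to the other miRNAs. Counts per 1000 spike-in counts state a strand relative to the added sequences. The limit and the marker values above are CPM without TMM factors. The amount of spike-in and the step of its addition were not stated. Whether replicates are separate cultures is not stated in the labels, and the spread that p-values are based on is that between these libraries, which may be technical.

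The mature strands are shown from 5′ to 3′ with the seed, bases 2 to 8, in capitals, because the seed decides which family a strand belongs to (RefSeq, GRCh38.p14). All 3 strands matched the RefSeq table by name.
hsa-miR-26a-5p: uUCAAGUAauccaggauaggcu
hsa-miR-26b-5p: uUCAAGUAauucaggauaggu
hsa-miR-26b-3p: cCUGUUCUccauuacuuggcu
The 5p strands share their seed and differ, counted from the 5′ end, by C11U and C21U, miR-26a-5p being named first. miR-26a-5p has 22 bases and miR-26b-5p has 21. Reads cut short at the 3′ end can be assigned by base 11 only, and how reads that match several entries were counted is not stated. The RefSeq table holds 4 mature miRNAs with this seed, of which miR-26a-5p and miR-26b-5p were in the count tables. The seed of miR-26b-3p differs, so the strands of the miR-26b hairpin are expected to pair with different target sites.

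The hairpins are shown with their mature strands in capitals, because both strands are released from the same stem.
MIR26A1: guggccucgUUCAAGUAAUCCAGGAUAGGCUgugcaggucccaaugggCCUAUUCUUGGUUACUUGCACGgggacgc
MIR26A2: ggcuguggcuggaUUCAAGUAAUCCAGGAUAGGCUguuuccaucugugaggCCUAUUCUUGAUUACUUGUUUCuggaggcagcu
MIR26B: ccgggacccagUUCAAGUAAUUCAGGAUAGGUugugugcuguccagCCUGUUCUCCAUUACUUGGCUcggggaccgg
MIR26A1 lies at chr3:37969404-37969480 on the plus strand, in an intron of CTDSPL. MIR26A2 lies at chr12:57824609-57824692 on the minus strand, in an intron of CTDSP2. MIR26B lies at chr2:218402646-218402722 on the plus strand, in an intron of CTDSP1. The hosts, which encode related small phosphatases of the tail of RNA polymerase II, are on the same strand as the hairpins (GENCODE 29). miR-26a-5p can come from either miR-26a hairpin, whereas its 3p strands are separate entries, miR-26a-1-3p and miR-26a-2-3p. From the first base of the 5p strand to the last base of the 3p strand the precursors have 61 bases (MIR26A1), 60 bases (MIR26A2) and 56 bases (MIR26B), with 17, 16 and 14 bases between the strands. In the fold predicted by RNAfold the 3′ end of the precursor overhangs by 2 bases in MIR26A1 and MIR26A2 and by 1 base in MIR26B. An overhang of a single base is the mark of group II precursors, such as most of let-7, which are mono-uridylated before dicing. Precursor ends were not measured in these libraries.

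miR-26a-5p was the most abundant strand of the family in every library, and in R821E it was far lower relative to the spike-ins. It had 5736 and 5416 CPM in R821E, 6824 and 6586 CPM in R821A, 7019 and 6615 CPM in E5, 7421 and 7398 CPM in A5, 7235 and 7337 CPM in ΔPAZ helix, and 6335 and 6562 CPM in WT (replicates 1 and 2). With TMM factors R821E libraries were below all others, and both libraries of each of the other 4 mutants were above both WT libraries. As a share of all miRNA counts, without those factors, R821E (0.410% and 0.435%) was again below all others. By that share WT (0.729% and 0.696%) overlapped R821A (0.763% and 0.694%), E5 (0.708% and 0.698%) and ΔPAZ helix (0.716% and 0.770%). Only A5 (0.767% and 0.786%) then lay above both WT libraries. On the spike-in scale miR-26a-5p had 62.7 and 58.2 counts per 1000 for R821E, 134 and 149 for R821A, 126 and 115 for E5, 141 and 146 for A5, 147 and 137 for ΔPAZ helix, and 163 and 181 for WT. On that scale both WT libraries were above all 10 others and R821E again below all others, while R821A, ΔPAZ helix and A5 overlapped.

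miR-26b-5p, the guide of the third hairpin, was less abundant than miR-26a-5p in every library. It had 2199 and 1961 CPM in R821E, 2369 and 2375 CPM in R821A, 2312 and 2020 CPM in E5, 2738 and 2651 CPM in A5, 2628 and 2361 CPM in ΔPAZ helix, and 2705 and 2976 CPM in WT. R821E and E5 were lowest and overlapped each other, R821A overlapped ΔPAZ helix, and A5 overlapped WT. Per 1000 spike-in counts it had 24.0 and 21.1 for R821E, 46.7 and 53.8 for R821A, 41.4 and 35.2 for E5, 51.9 and 52.5 for A5, 53.5 and 44.2 for ΔPAZ helix, and 69.7 and 81.9 for WT. The order from the lowest was R821E, E5, then ΔPAZ helix, R821A and A5, which overlapped, and then WT.

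miR-26b-3p, the strand opposite the usual guide, was a minor product with 24 to 105 counts per library and was highest in R821E relative to the other miRNAs. It had 641 and 700 CPM in R821E, 189 and 321 CPM in R821A, 298 and 100 CPM in E5, 309 and 369 CPM in A5, 306 and 342 CPM in ΔPAZ helix, and 135 and 347 CPM in WT. The R821E libraries lay above the 10 others, and each of the other groups overlapped the next in order. Replicates of E5, WT and R821A differed widely. Per 1000 spike-in counts it had 7.01 and 7.51 for R821E, 3.73 and 7.28 for R821A, 5.33 and 1.75 for E5, 5.86 and 7.29 for A5, 6.22 and 6.41 for ΔPAZ helix, and 3.49 and 9.55 for WT. On the spike-in scale R821E lay inside the range of WT.

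**Figure D1:**
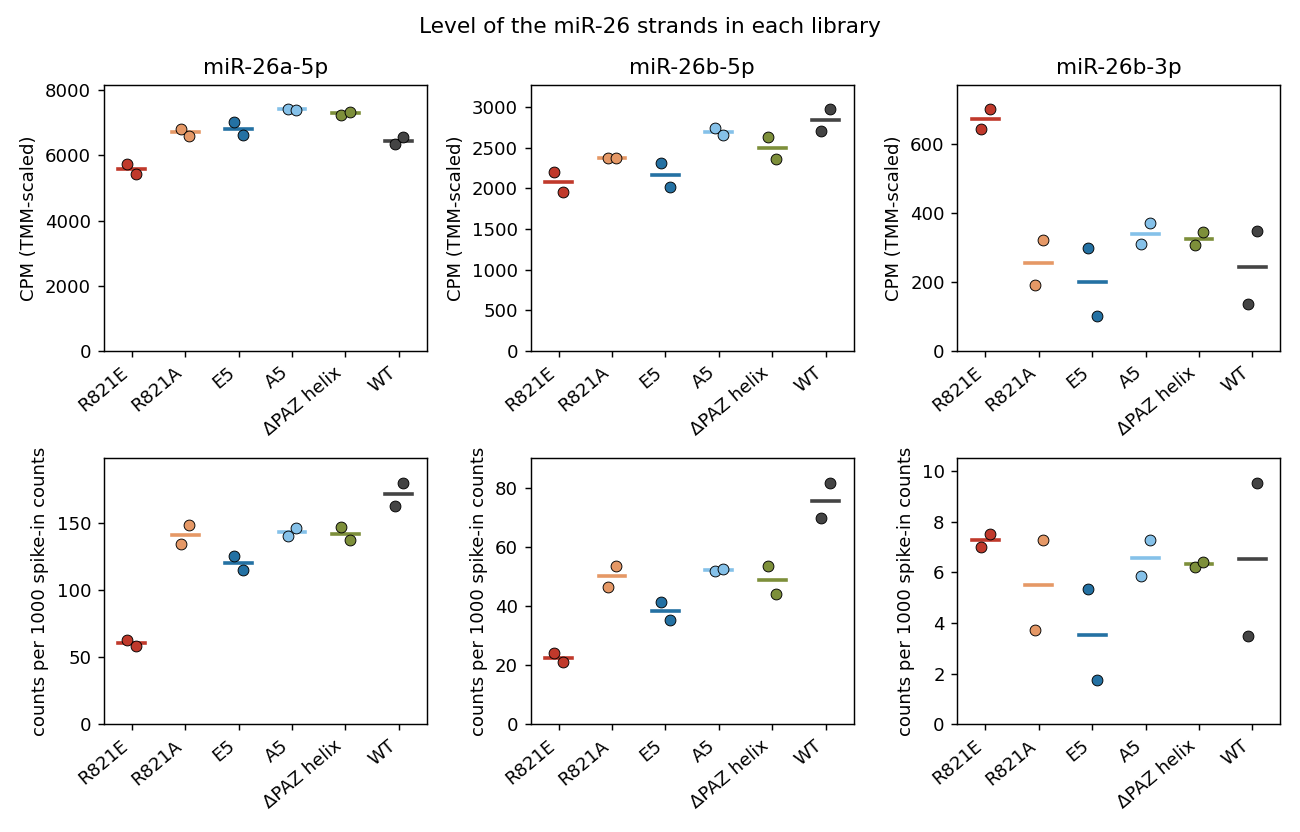
Levels of miR-26a-5p, miR-26b-5p and miR-26b-3p by group, as TMM-scaled CPM (top row) and as counts per 1000 spike-in counts (bottom row). Points are libraries (2 per group), lines are group means and all vertical axes start at 0. R821E was lowest for both 5p strands on the spike-in scale and highest for miR-26b-3p in CPM, at 641 and 700 CPM.

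The spike-in levels of the 5p strands differed among the 6 groups by more than the replicate spread. An exact permutation test of the F statistic over all 10395 partitions of the libraries into 6 groups of 2 gave p = 0.00144 for miR-26a-5p and 0.00164 for miR-26b-5p, both with adjusted p = 0.00491 over the 6 measures tested this way. For miR-26b-3p the same exact test gave p = 0.530 (adjusted p = 0.530). All miRNA counts together were also lower per spike-in count in R821E (15.3 and 13.4) than in WT (22.4 and 25.9). On this scale edgeR called 60.4% of all entries lower in R821E than in WT. The permutation test was not run on other entries, so whether such differences are particular to miR-26 was not tested.

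Against WT, R821E had 1 of the 3 strands higher and 1 lower on the TMM scale, and the strands of the miR-26b hairpin moved apart. miR-26b-3p rose by 1.48 ± 0.485 (SE) on the log2 scale (edgeR quasi-likelihood test, adjusted p = 0.0286) and miR-26b-5p fell by 0.45 ± 0.141 on that scale (edgeR, adjusted p = 0.0178). miR-26a-5p did not pass, with -0.21 ± 0.116 (edgeR, adjusted p = 0.152). The strands were chosen with the shift of this hairpin in R821E known. Neither these p-values nor the ranks below are therefore independent evidence of it. Over all 374 entries 23.8% were called higher and 24.1% lower in this comparison, so calls of single members were common here. Beside the other strands of its arm miR-26b-3p stood near the top. The median of the 148 tested 3p entries was -0.58, and 2 of them had a larger fold change than miR-26b-3p. The median of the 174 tested 5p entries was 0.17, and 41 of them were below miR-26b-5p and 61 below miR-26a-5p. The adjusted p (edgeR) of miR-26b-3p was 0.0819 without WT replicate 1, 0.0808 without R821E replicate 1 and 0.0821 without R821E replicate 2, and its log2 fold change was 0.99 without WT replicate 1 and 2.30 without WT replicate 2. That of miR-26b-5p was 0.0715 without WT replicate 2, 0.0573 without R821E replicate 1 and 0.226 without R821E replicate 2. Without R821E replicate 2 its log2 fold change was -0.29, and without WT replicate 1 it still passed (edgeR, adjusted p = 0.0362). Its call was also lost with DESeq2 (-0.38, adjusted p = 0.0867) and with only the 4 libraries compared (-0.37, edgeR, adjusted p = 0.164). Where a library is left out its group has 1, which is assumed to vary like the other groups.

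Relative to the spike-ins, both 5p strands fell in R821E and the 3p strand did not pass. miR-26a-5p had 60.4 ± 3.23 counts per 1000 spike-in counts in R821E and 172 ± 12.1 in WT (SD, n = 2 each), a log2 fold change of -1.51 ± 0.142 (SE; edgeR, adjusted p = 1.22e-06). miR-26b-5p had 22.6 ± 2.11 in R821E and 75.8 ± 8.56 in WT, a log2 fold change of -1.75 ± 0.175 (edgeR, adjusted p = 1.75e-06). miR-26b-3p had 7.26 ± 0.354 in R821E and 6.52 ± 4.29 in WT, a log2 fold change of 0.17 ± 0.505 (edgeR, adjusted p = 0.806). In such bulk samples fewer cells, less RNA per cell and a different input of spike-in cannot be told apart. The part of the expression level of each DICER, which is not stated, was not tested. On this scale 60.4% of all entries were called lower and the median of all entries was -1.38, so both 5p strands lay below the median and miR-26b-3p far above it. The median was -1.12 for the tested 5p entries and -1.88 for the tested 3p entries. With total miRNA counts as the scale miR-26a-5p also passed (-0.75, edgeR, adjusted p = 3.31e-04) and miR-26b-3p did not (0.95, edgeR, adjusted p = 0.0935).

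R821E also differed from R821A, in which the same residue is replaced. The same R821E libraries entered this comparison. The strands were chosen with the miR-26b shift in R821E known, so the p-values below are not independent evidence of it. On the TMM scale miR-26b-3p was higher in R821E by a log2 fold change of 1.40 ± 0.487 (edgeR, adjusted p = 0.0399), in a comparison that called 21.9% of entries higher. miR-26b-5p (-0.19 ± 0.141, edgeR, adjusted p = 0.300) and miR-26a-5p (-0.27 ± 0.116, adjusted p = 0.0804) did not pass on that scale. The call of miR-26b-3p was lost without R821E replicate 1 (edgeR, adjusted p = 0.0981), R821E replicate 2 (0.111) or R821A replicate 1 (0.198). On the spike-in scale 48.9% of entries were lower in R821E. There miR-26a-5p (-1.23 ± 0.141, edgeR, adjusted p = 1.06e-05) and miR-26b-5p (-1.15 ± 0.173, edgeR, adjusted p = 1.00e-04) were lower in R821E, and miR-26b-3p had 0.43 ± 0.508 (edgeR, adjusted p = 0.550).

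None of the 3 strands passed on the TMM scale in R821A, E5, A5 or ΔPAZ helix against WT. In R821A 3.21% of entries were called, 0.267% higher and 2.94% lower, and in E5 9.09%, 2.41% higher and 6.68% lower. In A5 and in ΔPAZ helix 0.267% were called. The 34 calls in E5 became 9 without WT replicate 2, 19 without E5 replicate 1 and 6 without E5 replicate 2, and the 12 in R821A became 2 without R821A replicate 1 and 6 without R821A replicate 2. DESeq2 and limma-voom also called none of the strands. Before adjustment miR-26b-5p in E5 was the 1 value under 0.05 (edgeR across all entries, unadjusted 0.0141). The lowest adjusted p (edgeR) was that of miR-26b-5p in E5, with a log2 fold change of -0.39 ± 0.139 and adjusted p = 0.104, and it passed with total miRNA counts as the scale (-0.49, edgeR, adjusted p = 0.0360). The other log2 fold changes of miR-26b-5p were -0.26 ± 0.139 in R821A, -0.08 ± 0.138 in A5 and -0.19 ± 0.139 in ΔPAZ helix. Those of miR-26a-5p were 0.06 ± 0.115 in R821A, 0.08 ± 0.116 in E5, 0.20 ± 0.116 in A5 and 0.18 ± 0.116 in ΔPAZ helix. These comparisons share the WT libraries. miR-26b-3p had 0.08 ± 0.495 in R821A, -0.31 ± 0.517 in E5, 0.50 ± 0.486 in A5 and 0.43 ± 0.492 in ΔPAZ helix, errors that leave room for changes in either direction.

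On the spike-in scale miR-26b-5p was lower than WT in E5, A5 and ΔPAZ helix. In E5 its log2 fold change was -0.99 ± 0.171 (edgeR, adjusted p = 0.00120), and 27.3% of entries were lower there. In A5 it was -0.54 ± 0.169 (edgeR, adjusted p = 0.0497, with 14.7% of entries lower) and in ΔPAZ helix -0.63 ± 0.170 (edgeR, adjusted p = 0.0336, with 13.1% lower). In R821A it was -0.59 ± 0.169 (edgeR, adjusted p = 0.0666), with 4.28% of entries lower, and it passed without WT replicate 1 (-0.71, edgeR, adjusted p = 0.0411). miR-26a-5p was lower in E5 (-0.51 ± 0.139, edgeR, adjusted p = 0.0165). It did not pass in R821A (-0.28 ± 0.139), A5 (-0.26 ± 0.139) or ΔPAZ helix (-0.27 ± 0.139), with edgeR adjusted p of 0.280, 0.211 and 0.200. The sign was opposite to the TMM scale in each of these 4 mutants. Median log2 fold changes of all entries on this scale were -0.35 in R821A, -0.56 in E5, -0.46 in A5 and -0.45 in ΔPAZ helix. The calls of miR-26b-5p in A5 and ΔPAZ helix were each lost without either library of the mutant and without WT replicate 2 (edgeR, adjusted p between 0.0824 and 0.281 in these fits), and with the replicate number as a block (edgeR, adjusted p = 0.0759 in A5 and 0.0558 in ΔPAZ helix). That in A5 was also lost with DESeq2 (adjusted p = 0.0753), limma-voom (0.0521) and no filter (edgeR, 0.106). Both were lost with only the 4 libraries compared (edgeR, adjusted p = 0.133 and 0.143), as was the call of miR-26a-5p in E5 (0.133), which was lost too without WT replicate 2 (0.0830) or E5 replicate 2 (0.103). miR-26b-3p passed in none of the 4 mutants, although in E5 (-0.91 ± 0.540, edgeR, adjusted p = 0.222) the adjusted p was 0.0295 without WT replicate 1 (-1.48) and 0.0453 without E5 replicate 1 (-1.88), fits with 1 library in that group and replicates that differed widely. Between E5 and A5 none of the strands passed on either scale with edgeR, DESeq2 or limma-voom, and edgeR called 0% of entries (36 at an unadjusted p under 0.05 on the TMM scale). The log2 fold change of miR-26b-5p between E5 and A5 was -0.32 ± 0.140 on the TMM scale (edgeR, unadjusted p = 0.0406, adjusted p = 0.475).

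**Figure D2:**
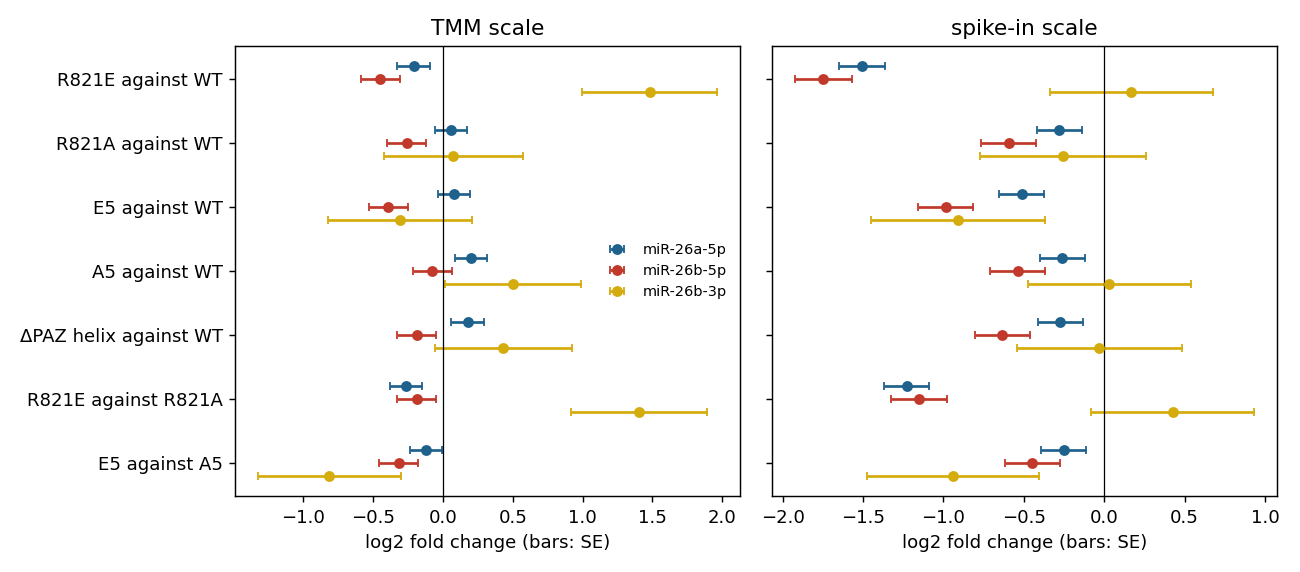
Log2 fold changes of the 3 strands in 7 comparisons on the TMM scale (left) and the spike-in scale (right), with bars for the SE. In R821E miR-26b-3p lay at 1.48 and 0.17 on these scales, and miR-26b-5p at -0.45 and -1.75.

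The ratio of the guides, miR-26a-5p over miR-26b-5p, needs no scaling and was higher in every mutant library than in WT. It was 2.61 and 2.76 for R821E, 2.88 and 2.77 for R821A, 3.04 and 3.27 for E5, 2.71 and 2.79 for A5, 2.75 and 3.11 for ΔPAZ helix, and 2.34 and 2.21 for WT. All 10 mutant libraries were above both WT libraries, and E5 was the highest in mean, at 3.16 ± 0.169 against 2.27 ± 0.0970 in WT (SD, n = 2 each). The groups differed by the exact permutation test of F over the 10395 partitions (p = 0.0149, adjusted p = 0.0298 over 6 measures). This test asks for any difference among the groups, and exact permutation of 2 against 2 libraries cannot reach 0.05, its smallest p being 1 in 3. Leaving out each library in turn gave unadjusted exact permutation p-values of 0.00452 to 0.0343. Read lengths, on which the assignment of a read to either strand can depend, were not analysed here.

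**Figure D3:**
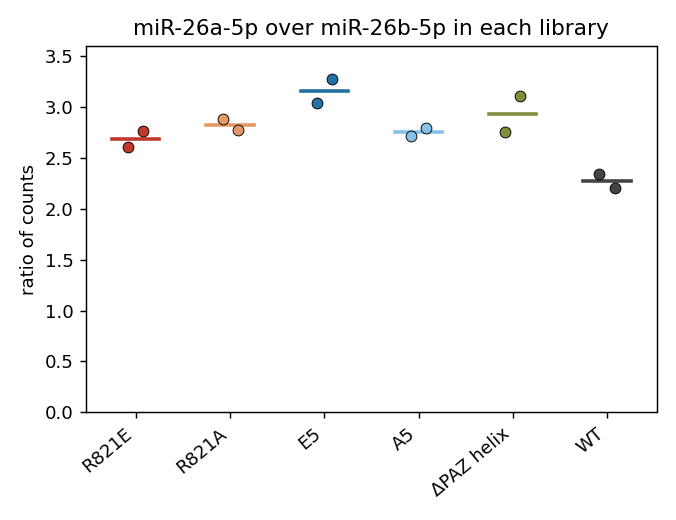
Ratio of miR-26a-5p counts to miR-26b-5p counts in each library, with group means as lines and the axis starting at 0. The 10 mutant libraries lie between 2.61 and 3.27 and the WT libraries at 2.34 and 2.21.

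The miR-26b hairpin gave a larger share of its 3p strand in R821E. The 3p strand made up 22.6% and 26.3% of miR-26b counts for R821E, 7.40% and 11.9% for R821A, 11.4% and 4.72% for E5, 10.1% and 12.2% for A5, 10.4% and 12.7% for ΔPAZ helix, and 4.76% and 10.4% for WT. The 95% exact (Clopper-Pearson) intervals, which cover counting error only, were 18.9% to 26.7% and 21.5% to 31.6% in R821E and 3.41% to 6.45% and 8.50% to 12.7% in WT. The R821E libraries were above all others, and the WT libraries differed from each other beyond counting error.

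As a 5p to 3p ratio this was 3.43 and 2.80 for R821E, 12.5 and 7.39 for R821A, 7.76 and 20.2 for E5, 8.85 and 7.19 for A5, 8.59 and 6.89 for ΔPAZ helix, and 20 and 8.57 for WT. The 5p strand stayed the more abundant in every library. The log2 ratio averaged 1.63 ± 0.206 in R821E and 3.70 ± 0.857 in WT (SD, n = 2 each), a shift of -2.07 ± 0.484 (SE; limma over 69 hairpins, adjusted p = 0.00417). The hairpin was among those chosen with this shift known, so neither its p-value nor its rank is independent evidence. In that comparison 55.1% of the 69 hairpins were called, 14.5% toward 3p and 40.6% toward 5p, around a median shift of 0.40. miR-26b had the most negative shift of the 69, followed by let-7a with -1.91 ± 0.235. Their order depended on the WT replicates, with log2 ratios of 4.30 and 3.09 for miR-26b and 3.97 and 3.59 for let-7a. Against R821A the shift of miR-26b was -1.63 ± 0.484 (limma, adjusted p = 0.0156), where 5.80% of hairpins were called toward 3p. Leaving out R821E replicate 2 or R821A replicate 1 ended that second call (limma, adjusted p = 0.0735 and 0.134), and the shift against WT was between -1.47 and -2.68 when a library was left out, -1.47 being the value without WT replicate 1 (limma, adjusted p = 0.0376). Tested as a single value over all 6 groups, the log2 ratio gave p = 0.0836 by exact permutation (adjusted p = 0.10).

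The remaining mutants did not pass for this ratio in limma, nor at an unadjusted p under 0.05. Shifts against WT were -0.44 in R821A, -0.07 in E5, -0.71 in A5 and -0.76 in ΔPAZ helix, each ± 0.484 (SE, limma, adjusted p of 0.855, 0.981, 0.579 and 0.646), and limma called 0% of hairpins in R821A, A5 and ΔPAZ helix and 4.35% in E5. These shifts rested on the WT replicates. Without WT replicate 1 they were 0.16 in R821A, 0.53 in E5, -0.10 in A5 and -0.16 in ΔPAZ helix, and without WT replicate 2 they were -1.05, -0.68, -1.32 and -1.37 in the same order. Leaving out R821A replicate 1 or 2 gave -0.82 or -0.06 in R821A, and leaving out E5 replicate 1 or 2 gave 0.61 or -0.75 in E5. None of them passed in these fits. E5 against A5 gave 0.64 ± 0.484 (limma, adjusted p = 0.640). WT replicate 1 and E5 replicate 2 were the libraries with ratios of 20 and 20.2, and all others lay at 12.5 or below.

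**Figure D4:**
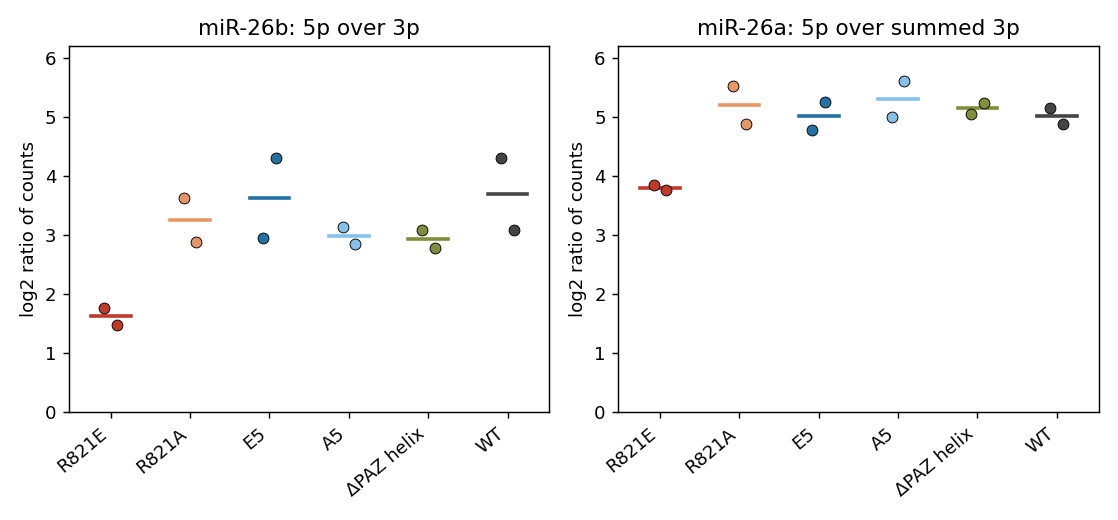
Log2 ratio of 5p to 3p counts (0.5 added to each) in each library for miR-26b (left) and for miR-26a with the 3p strands of both hairpin copies summed (right), with group means as lines. R821E is the lowest group for both, with means of 1.63 and 3.80 against 3.70 and 5.01 in WT.

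The miR-26a hairpins, whose 3p strands are separate entries outside the 3 members, showed the same direction in R821E. Their summed 3p counts were 65 and 46 for R821E, 42 and 48 for R821A, 46 and 41 for E5, 46 and 40 for A5, 48 and 37 for ΔPAZ helix, and 51 and 58 for WT. The ratio of miR-26a-5p to that sum was 14.4 and 13.6 in R821E and 35.8 and 29.7 in WT, with 27.7 to 49.2 over all libraries outside R821E. With hairpin copies summed in this way, a pairing chosen after the data were seen, limma over 76 hairpins gave a shift of -1.22 ± 0.293 against WT (adjusted p = 0.00441) and -1.40 ± 0.293 against R821A (adjusted p = 0.00291). That fit called 56.6% of hairpins against WT, 17.1% toward 3p, and 43.4% against R821A, 9.21% toward 3p. miR-26a was also among the hairpins chosen with such shifts known, so these p-values are not independent evidence. The exact permutation test over the 6 groups gave p = 0.0794 (adjusted p = 0.10). miR-26a-1-3p and miR-26a-2-3p had log2 fold changes of 0.68 ± 0.425 and 1.33 ± 0.622 in R821E against WT and did not pass singly (edgeR, adjusted p = 0.198 and 0.0961). Their balance differed between the WT replicates, with 44 and 19 counts of miR-26a-1-3p and 7 and 39 of miR-26a-2-3p. A difference in shift between miR-26b and miR-26a was not tested.

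The hairpins nearest to miR-26b in the size of the R821E shift were let-7a with -1.91, then miR-96 with -1.58, then let-7b (-1.20) and let-7g (-1.14), and miR-324 with -1.01, each called by limma. let-7a-5p comes from several hairpins, so its ratio does not describe a single stem. The hairpins with the most similar WT ratio to that of miR-26b, a mean log2 of 3.70, were miR-20a (3.72), let-7i (3.72), let-7a (3.78), let-7b (3.88) and miR-96 (3.89). Among these, miR-20a had a shift of -0.77 ± 0.317 (limma, adjusted p = 0.0548) and let-7i shifted the other way, by 0.74 ± 0.276 (limma, adjusted p = 0.0372). Of these 5 hairpins, let-7i was the one with a positive shift.

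**Figure D5:**
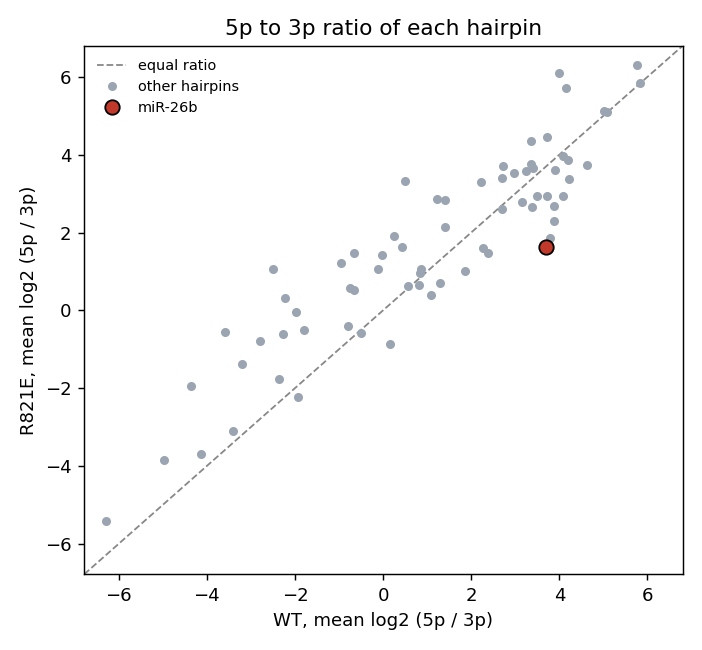
Mean log2 5p to 3p ratio in R821E (vertical) against WT (horizontal) for 69 hairpins, each point the mean of 2 libraries per group, with a dashed line of equal ratios. miR-26b (red) lies at 1.63 in R821E and 3.70 in WT, below the line.

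Group II let-7 strands, products of precursors that need mono-uridylation, were taken as a comparison because the precursor of miR-26b has a predicted overhang of 1 base. In this list let-7a-5p and let-7f-5p also come from precursors outside group II or from several precursors. In R821E against WT, 15 such strands were tested, with 3 higher and 7 lower, where 23.8% and 24.1% of all 374 entries were called in these directions, so the share called higher was near that of all entries. Their 5p strands gave 0 higher and 5 lower of 7, with a median log2 fold change of -0.86. Their 3p strands gave 3 higher and 2 lower of 8, with a median of 0.83. Of all 174 tested 5p entries 50 were higher and 28 lower, and of all 148 tested 3p entries 18 were higher and 56 lower. The miR-26b strands had -0.45 for 5p and 1.48 for 3p. Of 5 group II let-7 hairpins with a measured arm ratio, 3 shifted toward 3p and 1 toward 5p in R821E against WT, with a median shift of -1.14, where 14.5% and 40.6% of all 69 hairpins were called in these directions. Against R821A 1 let-7 5p strand of 7 was higher and 0 lower, with a median log2 fold change of 0.06. Of all entries 21.9% were higher and 19.5% lower there. In that comparison 1 of the 5 hairpins shifted toward 3p (5.80% of all hairpins), while miR-26b had a shift of -1.63. In R821A, 5 of the 7 let-7 5p strands were lower (2.94% of all entries), with a median of -0.90, and miR-26b-5p had -0.26 and did not pass. In E5, 4 of 7 were lower (6.68% of all entries), with a median of -0.64, and miR-26b-5p had -0.39 and did not pass. In A5 and ΔPAZ helix 0 of 7 were called (0.267% of all entries in each), with medians of -0.52 and -0.23. miR-26a, whose precursors have a predicted overhang of 2 bases, also shifted toward 3p in R821E. With hairpin copies summed its shift was -1.22 ± 0.293 against WT and -1.40 ± 0.293 against R821A (limma). Whether the overhang bears on these shifts was not tested. The list was chosen with earlier results known, and a difference between it and miR-26 was not tested.

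Over the 12 libraries the strands of the family did not follow each other closely. Pearson's r of log2 CPM was 0.54 between miR-26a-5p and miR-26b-5p, which ranked 66th of 373 entries in likeness to miR-26a-5p. It was -0.11 between miR-26b-5p and miR-26b-3p, and -0.36 between miR-26a-5p and miR-26b-3p. The entries most like miR-26a-5p were miR-335-3p (r = 0.94), miR-342-3p (0.93), miR-30c-5p (0.86), miR-935 (0.83) and miR-941 (0.82). Those most like miR-26b-5p were let-7d-3p (r = 0.91), miR-877-5p (0.85), miR-1180-3p (0.85), miR-92b-3p (0.83) and let-7e-5p (0.82). Those most like miR-26b-3p were miR-93-3p (r = 0.97), miR-195-5p (0.95), miR-6516-3p (0.93), let-7b-3p (0.92) and miR-4485-3p (0.91). All values share the same libraries and scaling factors, and the R821E libraries are among them.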

How the data were processed

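The authors deposited 1 table of raw read counts for each library, by miRNA or spike-in entry and without normalization. The submitters' processing notes name cutadapt, BWA, bedtools, hg38 and mm10. Their versions and roles, and the counting of reads that match several entries, are not stated. The 30 spike-in entries, 3.71% to 6.96% of all counts, entered neither library sizes nor tests.

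Counts were tested in 1 fit over all 12 libraries with edgeR 4.0.16 in R 4.3.3 (quasi-likelihood, robust, TMM factors, filterByExpr by group, 6 residual degrees of freedom). P-values were adjusted by Benjamini-Hochberg over 374 entries, with a threshold of 0.05. The same fit with summed spike-in counts as library size gave the spike-in scale. The SE given with edgeR is the absolute log2 fold change divided by the square root of the quasi-likelihood F. Arm ratios, log2 of (5p + 0.5)/(3p + 0.5), were tested with limma 3.58.1 (trend, robust) for the 69 hairpins whose arms each averaged at least 20 counts. Single values were tested by exact permutation. Precursors were folded with RNAfold 2.7.2. The functions were tested on simulated data. Replicates differed beyond sampling noise, with chi-square per degree of freedom of 25.6 in WT, 14.6 in E5, 9.87 in R821A and 3.83 to 5.16 in the other groups. Each library counted as a sample, although such a spread does not show that replicates are separate cultures. Members, lists and tests were chosen with earlier results of these data known. Beyond the members, entries named are other miR-26 strands, the 5 entries most alike each member by r, and the hairpins nearest to miR-26b in shift or in WT ratio. Alternatives were DESeq2 1.42.0, limma-voom, other scalings, filters, pseudocounts, subsets and a replicate block. Same-numbered libraries were not treated as pairs. The r of their deviations from group means was -0.50 to 0.37 (median -0.04) and over 0.1 in 1 of 15 pairs of groups. A batch numbered differently between groups would not be seen by that count and was not tested.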

Additional observations from a re-analysis of the deposited data

How the results depend on the processing

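In all, 52 values were recomputed to give 662 alternative values, of which 608 kept their side of the threshold (values that were not called could change sign), 36 lost their call, 17 gained one and 1 gained one with the opposite sign. The causes were not tested beyond what each setting changes. In R821E against WT, miR-26b-5p was lost with DESeq2 (-0.38, adjusted p = 0.0867) and with only the 4 libraries compared (-0.37), and ranged from -0.50 to -0.29 with 1 library left out. miR-26b-3p was lost with total miRNA counts (0.95) and on the spike-in scale (0.17) and ranged from 0.99 to 2.30. miR-26a-5p passed with total miRNA counts (-0.75), with spike-in counts (-1.51) and with entries of at least 100 CPM (-0.27). In E5, miR-26b-5p passed with total miRNA counts (-0.49) and spike-in counts (-0.99), and miR-26a-5p had -0.51 with spike-in counts, beside 0.08 with TMM factors. With spike-in counts miR-26b-5p passed in A5 (-0.54) and ΔPAZ helix (-0.63).

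In R821E against R821A, miR-26b-3p was lost with total miRNA counts (0.89), upper quartile factors (1.28) and spike-in counts (0.43) and ranged from 1.07 to 1.86 with 1 library left out. miR-26a-5p passed with total miRNA counts (-0.79), spike-in counts (-1.23) and at least 100 CPM (-0.37), and miR-26b-5p with total miRNA counts (-0.71) and spike-in counts (-1.15). The miR-26b arm shift ranged from -2.01 to -1.25 and was lost without R821E replicate 2 (-1.48) or R821A replicate 1 (-1.25), also with the hairpins that have further copies left out (65 hairpins, an alternative chosen after seeing the data), and the shift against WT from -2.68 to -1.47. The exact permutation F over the 6 groups for this ratio ranged from 1.53 to 5.68, and before adjustment over the 6 measures its exact permutation p was under 0.05 without WT replicate 2 (0.0475) or E5 replicate 1 (0.0361).

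On the spike-in scale the call of miR-26b-5p in A5 was lost with DESeq2 (-0.54, adjusted p = 0.0753), limma-voom (-0.53, adjusted p = 0.0521), no filter (-0.54) and only the 4 libraries compared (-0.54), and ranged from -0.65 to -0.42 with 1 library left out. With only 4 libraries, miR-26b-5p in ΔPAZ helix (-0.63) and miR-26a-5p in E5 (-0.51) were lost. Their ranges with 1 library left out were -0.78 to -0.50 and -0.58 to -0.44. miR-26b-5p in R821A (-0.71 to -0.48) passed without WT replicate 1, and miR-26b-3p in E5 (-1.88 to -0.0298, the value nearest 0 being that without WT replicate 2) passed without WT replicate 1 or E5 replicate 1.

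With the replicate number as a block, miR-26b-5p on the spike-in scale was lost in A5 (-0.54, adjusted p = 0.0759, edgeR) and ΔPAZ helix (-0.64, adjusted p = 0.0558, edgeR), and no other member changed its call. With the block 22 entries were called in E5 against WT, beside 34 without it. Over the alternatives 0 to 55 entries were called in A5 and 0 to 49 in ΔPAZ helix, beside 1 in each. With spike-in counts 102 were called in E5, and with only the 4 libraries compared 0 in R821A, E5, A5 and ΔPAZ helix. Leaving out R821E replicate 1 gave 114 calls against WT, beside 179, and 73 against R821A, beside 155. Counts of 24 to 105 limit what can be said of miR-26b-3p, and the arm ratio with at least 100 counts in both arms could not be tested for miR-26b.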
